A study of Drosophila melanogaster with 3 samples.

Results

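The 8 Hox genes of Drosophila melanogaster were examined for binding of CG10209 fused to green fluorescent protein (GFP), as measured by chromatin immunoprecipitation and sequencing (ChIP-seq). Of these, lab, pb, Dfd, Scr and Antp form the Antennapedia complex, and Ubx, abd-A and Abd-B form the bithorax complex. Both complexes lie on chromosome arm 3R, and all 8 genes were found in the annotation, out of 18277 annotated genes. A region was assigned to a Hox gene when its summit, the base of highest enrichment, lay in the gene or within 20 kb of it. The authors' list of reproducible peaks, made by comparing ranks between replicates with the irreproducible discovery rate (IDR), held 30 such peaks out of 6307.

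Per the labels, all samples were whole embryos of mixed sex, collected over 0 to 24 h of development, from 1 transgenic line carrying CG10209 tagged with GFP at its C terminus. Precipitation was with an antibody against GFP. There was 1 group of 3 biological replicates and no second genotype, treatment or stage. Regions therefore record the tagged protein averaged over every cell and age in the collection, and a site bound in few cells cannot be told apart from a site bound weakly in many.

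Hox genes encode homeodomain transcription factors that give the segments of the body axis their identities. In Drosophila their order along the chromosome follows the order of their expression domains from head to tail. Long introns and intergenic stretches around them carry enhancers, insulators and Polycomb response elements, and several of the noncoding RNAs of the bithorax complex are transcribed through those elements.

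Stretches of 201 bases centred on the summit are given for the highest peak in Abd-B, the highest peak near abd-A, the highest peak in Antp, and the 2 peaks at Hox gene promoters. These are the peaks on which the account of the 2 complexes turns. They are 5′ to 3′ on the forward strand of 3R in dm6 (Release 6), from RefSeq. Capitals mark matches on either strand to TAATTA (a homeodomain core), GAGAG (bound by GAGA factor, read as CTCTC on the other strand) and GCCAT (the Pleiohomeotic core, read as ATGGC).
Abd-B intron, chr3R:16958186-16958386: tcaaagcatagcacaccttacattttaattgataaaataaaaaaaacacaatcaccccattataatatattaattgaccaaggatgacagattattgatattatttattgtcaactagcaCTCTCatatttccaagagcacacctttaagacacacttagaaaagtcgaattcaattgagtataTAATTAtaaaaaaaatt
near abd-A, chr3R:16798789-16798989: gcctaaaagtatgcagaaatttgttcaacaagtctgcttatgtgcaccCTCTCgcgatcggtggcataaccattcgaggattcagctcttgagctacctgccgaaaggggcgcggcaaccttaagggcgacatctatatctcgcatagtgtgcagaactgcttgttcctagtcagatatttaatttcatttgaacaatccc
Antp intron, chr3R:6912420-6912620: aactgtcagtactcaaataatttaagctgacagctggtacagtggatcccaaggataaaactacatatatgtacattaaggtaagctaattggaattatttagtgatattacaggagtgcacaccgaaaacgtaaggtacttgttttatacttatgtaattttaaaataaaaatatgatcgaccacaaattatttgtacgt
Dfd promoter, chr3R:6791326-6791526: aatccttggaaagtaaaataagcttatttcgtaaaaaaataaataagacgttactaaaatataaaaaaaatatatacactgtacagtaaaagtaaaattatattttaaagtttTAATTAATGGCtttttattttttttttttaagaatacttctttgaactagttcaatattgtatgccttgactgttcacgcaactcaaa
Antp internal promoter, chr3R:6933030-6933230: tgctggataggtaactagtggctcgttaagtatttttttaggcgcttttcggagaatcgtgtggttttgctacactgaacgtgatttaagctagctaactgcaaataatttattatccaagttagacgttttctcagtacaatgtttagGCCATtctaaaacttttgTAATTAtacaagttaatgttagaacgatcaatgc
The Dfd and Antp promoter stretches both held TAATTA and GCCAT within 100 bases of the summit, and at Dfd the matches were adjacent. Both motifs are common: in the longer stretches used for the motif counts below, TAATTA occurred at 23.6% and GCCAT at 37.5% of all IDR peaks. The Dfd stretch was 78.6% A and T. How often both motifs occur together over all peaks was not counted, so their pairing only describes these promoter peaks. The Abd-B stretch held TAATTA and GAGAG, the one near abd-A held GAGAG alone, and the Antp intron stretch held none of the 3.

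Peaks were spread over both complexes at about the density of the genome as a whole. The windows of the Antennapedia complex covered 362 kb and held 18 IDR peaks, or 49.8 per Mb. Those of the bithorax complex covered 266 kb and held 12, or 45.2 per Mb. Over both, 30 peaks stood against 28.9 given by window length alone, a ratio of 1.04 with an exact binomial 95% interval of 0.702 to 1.48. The ratio was 1.08 (0.641 to 1.71) for the Antennapedia complex and 0.982 (0.507 to 1.71) for the bithorax complex. All 8 genes had at least 1 IDR peak in the window, as did 81.8% of all coding genes in windows drawn the same way. The Hox genes are longer, 10.6 to 103 kb against a median of 2.16 kb, so their windows had more room for a peak.

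Peak heights at the Hox genes spread from near the lowest of the list to above its upper quartile. The authors' signal value, which ranks regions within a list, ran from 208 to 1108 over the 30 peaks with a median of 387. Over all 6307 peaks the median was 341 and the quartiles were 249 and 552, in a range from 194.7 to 15205. Of the 30, 16 lay above the median of all peaks, and the highest ranked 450 of 6307. The pooled list, which has 30000 regions and includes background, held 121 in the Hox windows. Of these 24.8% were IDR peaks (exact 95% interval 17.4 to 33.5), against 21.0% over the whole list.

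**Figure D1:**
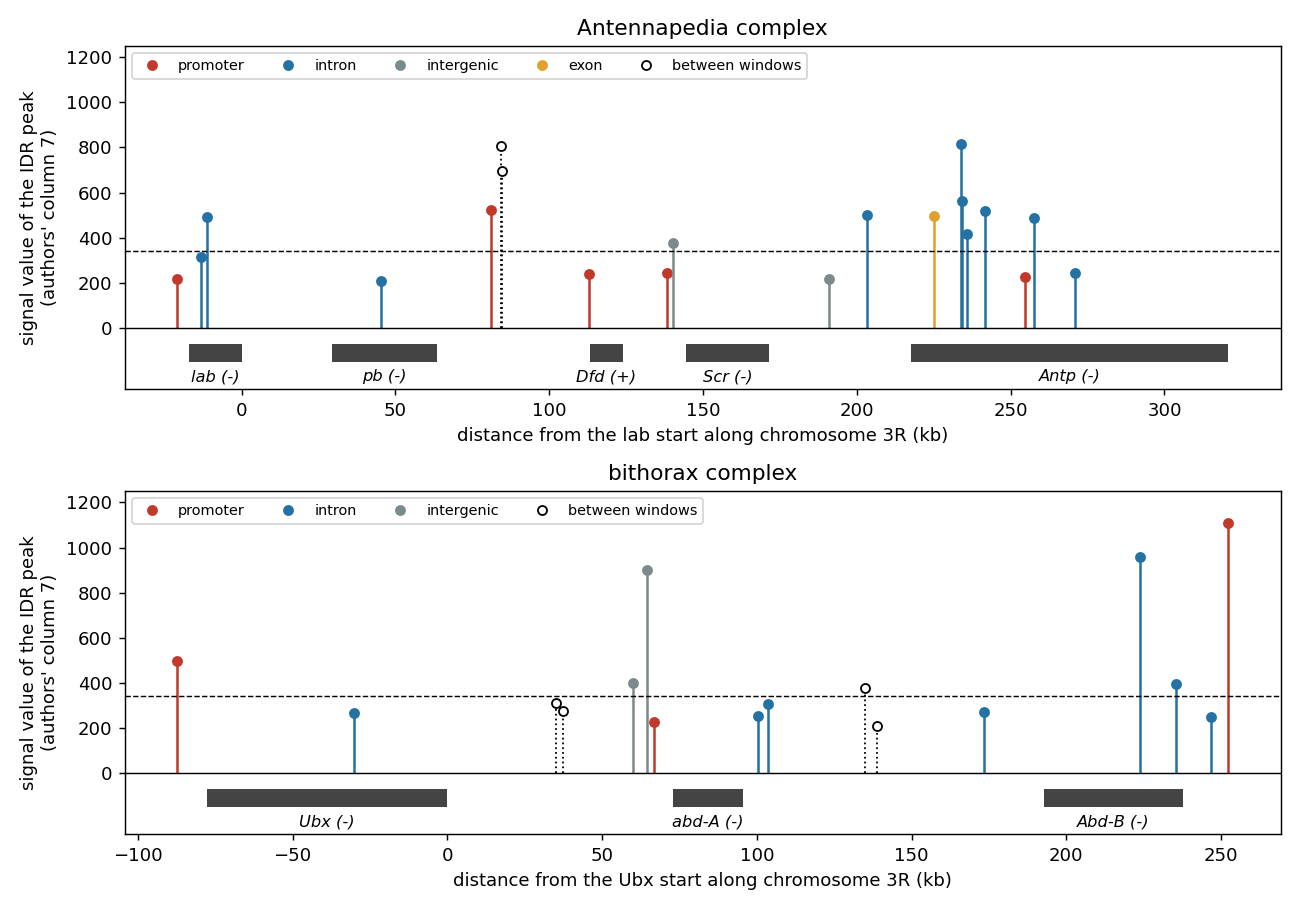
Signal value of each IDR peak (authors' value, vertical axis) along the Antennapedia (top) and bithorax (bottom) complexes, at its distance in kb from the lab or the Ubx start. Colours give the position class, open symbols the 6 peaks outside the windows, and dark bars the Hox genes with their strand. The dashed line is the median of all IDR peaks, 341. Antp holds 8 of the 18 Antennapedia peaks. The 3 highest of the 30 lie in the bithorax windows, at 1108, 958 and 899, the 1108 peak in the flank beyond Abd-B.

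In the Antennapedia complex, Antp, the gene that specifies thoracic identity, had the most IDR peaks and also the longest window, 143 of 362 kb. Antp (FBgn0260642, 3R 6896253 to 6999228, reverse strand) held 8 IDR peaks in the gene, 6 of them in introns, and 9 in its window. Per length it had 6.29 IDR peaks per 100 kb of window, beside 5.93 for Dfd, 5.25 for lab, 4.49 for Scr and 2.69 for pb. With no flank it had 7.77, beside 11.7 for lab, 2.92 for pb and 0 for Dfd and Scr. The last peak in the gene had its summit 49.7 kb short of the most distal start. That stretch, whose edge is the peak itself, held 10 pooled regions where length gives 10.9.

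The highest peak of the Antennapedia complex lay in an Antp intron at 6912415 to 6912617, with a signal of 815 and rank 815. Its rank was 806, 943 and 791 in replicates 1, 2 and 3. A second peak, at 6912689 to 6912843 with a signal of 563, had its summit 201 bp away and ranked 1816, 943 and 1601. In replicate 2 both peaks overlapped the same region, so they were not separate there. A peak at 6920072 to 6920275 had a signal of 517 and ranked 1662, 2126 and 1874, placing it well inside the 6307 highest regions of every replicate. The other 5 peaks in the gene had signals from 226 to 498, and 1 of them lay in an exon of a noncoding gene inside Antp, lncRNA:CR43252. The gene CG46458 overlaps the same 8 peaks, so position alone does not assign them to Antp. The peak in the window outside the gene lay at 6881768 to 6881887, in an intron of lncRNA:CR44931. Its signal was 501 and its ranks were 1906, 1745 and 2065.

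The gene lab, which acts in the head and midgut, had 3 peaks in its window. Both of those in the gene (FBgn0002522, 3R 6661427 to 6678590) were in introns. One at 6667369 to 6667552 had a signal of 494 and ranked 2313, 1208 and 2233. One at 6665390 to 6665599 had a signal of 317 and ranked 3883, 2623 and 3821, 2036 bp from a lab start. The third was at the promoter shared by CG1307 and twr, with a signal of 215.

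The gene pb, which specifies mouthparts, had 2 peaks in its window. The one in the gene (FBgn0051481, 3R 6707800 to 6742063) was an intron peak of signal 208, the lowest of the 30, and ranked 7698, 5837 and 4686. The other, at 6759598 to 6759727, lay 173 bp from the start of bcd, the maternal determinant of the anterior pole, which sits in the complex but is not a Hox gene. It had a signal of 523 and ranked 1195, 2443 and 1904, ahead of the pb intron peak in each replicate.

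The genes Dfd, which acts in the maxillary and mandibular segments, and Scr, which acts in the labial and anterior thoracic segments, held 0 IDR peaks inside them. Scr (FBgn0003339, 3R 6823120 to 6849981) spans 26.9 kb and held 0 pooled regions, where its length at the pooled list's mean density gives 5.88. In the replicate lists it held 5, 0 and 0 regions, none at a −log10 q of 2 or more. Dfd (FBgn0000439, 3R 6791836 to 6802428) held 1 pooled region, of signal 68.3, where length gives 2.32. Both gene bodies were taken up for their 0 IDR peaks, and the pooled regions include the IDR peaks. Low pooled counts are thus partly set by that choice and are not a separate result. Between the genes, 2 peaks fell in both windows. One at 6818564 to 6819007 was intergenic, with a signal of 377 and ranks 3168, 2200 and 2989. The other, at 6816475 to 6816918, was at the promoter of lncRNA:CR42651 with a signal of 243. A further intergenic peak in the Scr window, 5188 bp from the start of the pair-rule gene ftz, had a signal of 216.

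In the bithorax windows the 3 highest peaks lay around abd-A and Abd-B. The highest of them was at CG18622, in the flank beyond Abd-B and outside the span of the Hox genes. Ubx had the lowest density of the 8 genes with flanks of 20 kb, 1.70 IDR peaks per 100 kb. That place depended on the flank: at 10 kb Ubx had 2.04 and pb 1.84, and with no flank Ubx had 1.29 while Dfd, Scr and abd-A had 0. Ubx (FBgn0003944, 3R 16656623 to 16734426), which specifies the segments of the haltere and the front of the abdomen, had 2 peaks in a window of 118 kb. The only one in the gene, at 16704203 to 16704646, was an intron peak 30001 bp from the Ubx start with a signal of 268. It ranked 2878, 8583 and 4611, outside the 6307 highest regions in replicate 2. The other, at 16647075 to 16647209, was at the promoter shared by CG10324 and CCT3, which encodes a subunit of the cytosolic chaperonin. It had a signal of 498, ranked 2084 and 1790 in replicates 2 and 3, and had no region in replicate 1. The longest stretch of the complex without an IDR peak, 65.2 kb, ran across the Ubx start and held 13 pooled regions. In the Antennapedia complex the longest was 56.5 kb, from lab to pb, with 5 pooled regions. The pooled list averaged 219 regions per Mb over the genome. The Ubx gene body held 14 pooled regions where length gives 17.0.

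The gene abd-A (FBgn0000014, 3R 16807214 to 16830049), which specifies middle abdominal segments, held 0 IDR peaks in its body but 5 in its window. Within the gene the pooled list held 1 region, of signal 53.5, where length gives 4.998. The gene body was taken up for its 0 IDR peaks, so this low count is partly set by that choice. The replicate lists held 2, 4 and 1 regions there, none at a −log10 q of 2 or more. On the 3′ side, the peak at 16798768 to 16799034 was intergenic, with a signal of 899 and ranks 551, 749 and 845. Its neighbour at 16794196 to 16794639 was intergenic, with a signal of 400.03 and ranks 2505, 2415 and 2600. A peak of signal 229 at the promoter of lncRNA:TS16 completed this group. On the 5′ side, 2 peaks lay 4811 and 7956 bp upstream of an abd-A start, in introns of lncRNA:iab8 and MSAmiP, with signals of 253 and 309. The nearer of them ranked 10138, 5785 and 3234, the widest spread of ranks among the 5.

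The gene Abd-B (FBgn0000015, 3R 16927212 to 16972236), which specifies the posterior abdomen and genitalia, had 5 peaks in its window, 2 of them in its introns. The peak at 16958264 to 16958513 had a signal of 958 and rank 609, and ranked 517, 580 and 655 in the replicates. It lay 1995 bp inside the gene from the nearest of 6 annotated Abd-B starts. The other, at 16969796 to 16970239, had a signal of 397 and ranked 2092, 3405 and 2450. The highest of all 30, with a signal of 1108 and ranks 379, 650 and 478, was at 16986483 to 16986816. It lay 14432 bp from an Abd-B start and 182 bp inside CG18622, at that gene's promoter. The remaining 2 were in introns of AhcyL2 (248) and lncRNA:iab8 (273).

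Promoters of the Hox genes themselves were bound at 2 of 8, both with a low signal. Over all 13968 coding genes 21.5% had an IDR peak within 500 bp of an annotated start. The Dfd peak, at 6791204 to 6791647, lay 410 bp upstream of the start with a signal of 238. It ranked 3706 in replicate 1 and 4524 in replicate 3, and replicate 2 held no region there. The Antp peak, at 6932908 to 6933351, lay 290 bp upstream of an internal start with a signal of 226 and ranked 5610, 6943 and 4639. Both signals were below the lower quartile of all IDR peaks. With a replicate left out, a peak was kept if both remaining replicates had an overlapping region among their 6307 highest. Neither promoter peak was kept without replicate 1 or without replicate 3, which gave 0 of 8, and both were kept without replicate 2. These failures came from replicate 2, where Dfd had no region and the Antp region ranked 6943. They follow the rank filter and do not show a loss from leaving out replicate 1 or 3. The nearest peak to a start was 1444 bp away at Abd-B, 2036 at lab, 4811 at abd-A, 17576 at pb, 19531 at Scr and 30001 at Ubx. The median over the 8 genes was 3.42 kb, and 3 of them were farther than the median of coding genes, 5.77 kb.

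Of the 30 peaks, 8 were at a promoter of any gene, 1 in an exon, 17 in introns and 4 intergenic. Promoter peaks made up 26.7% (exact 95% interval 12.3 to 45.9), against 42.8% of all IDR peaks. Intron peaks made up 56.7% (37.4 to 74.5), against 39.4%. Both intervals hold the genome-wide share, and these differences were not tested. The complexes had similar make-up: 5 promoter, 1 exon, 10 intron and 2 intergenic peaks in the Antennapedia complex, and 3, 0, 7 and 2 in the bithorax complex. An exon count of 0 of 12 allows a share of up to 26.5%. The median signal of promoter peaks was 238 and of intron peaks 491 in the Antennapedia complex. In the bithorax windows the order was the other way, 498 and 273, and over all IDR peaks it was 380 and 323. The 3 bithorax promoter peaks were at CG10324 and CCT3 (498), lncRNA:TS16 (229) and CG18622 (1108). Those of 498 and 1108 lay in flanks outside the span of the Hox genes, as did the CG1307 promoter peak (215) beside lab. With 3 to 10 peaks behind each of the 4 Hox medians, this is a description of these peaks.

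**Figure D2:**
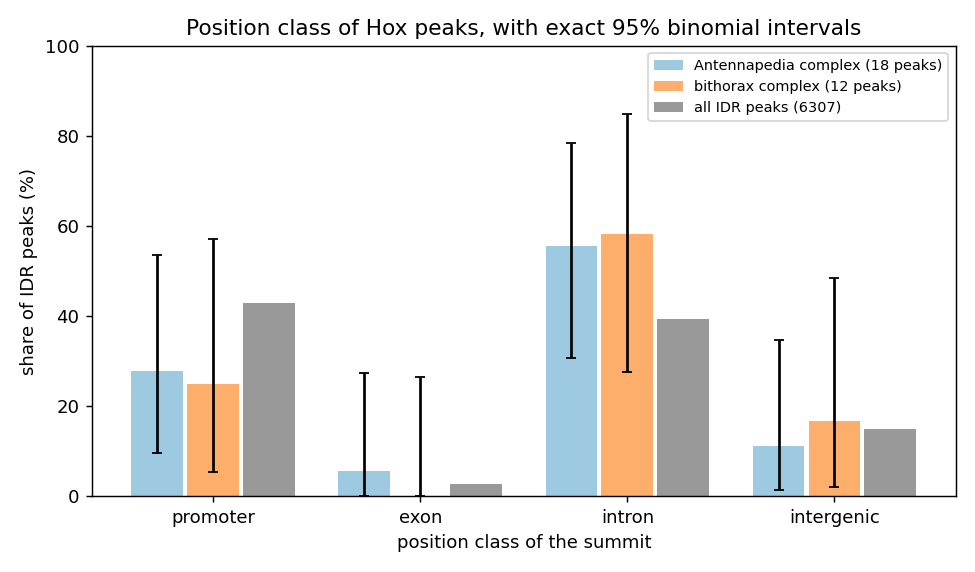
Share of IDR peaks by position class (percent) in the Antennapedia complex, the bithorax complex and over all 6307 IDR peaks, with exact binomial 95% intervals for both complexes. Intron peaks make up the largest class in both complexes, 10 of 18 and 7 of 12, and promoter peaks the largest class genome-wide, 42.8%.

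Replicates differed in how many Hox regions they detected. At a −log10 q of 2 or more, replicates 1, 2 and 3 held 22, 36 and 39 regions in the Hox windows, and 4296, 9183 and 9015 in their whole lists. Because replicate 1 was lower over its whole list too, ranks rather than q were used to compare replicates. A region overlapped the IDR peak in all 3 lists for 28 of the 30, 93.3%, against 88.1% of all IDR peaks. The region was among the 6307 highest of its list in all 3 replicates for 18 of the 30, 60.0%, against 66.0%. The exceptions to overlap were the Dfd promoter in replicate 2 and the CG10324 promoter in replicate 1.

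**Figure D3:**
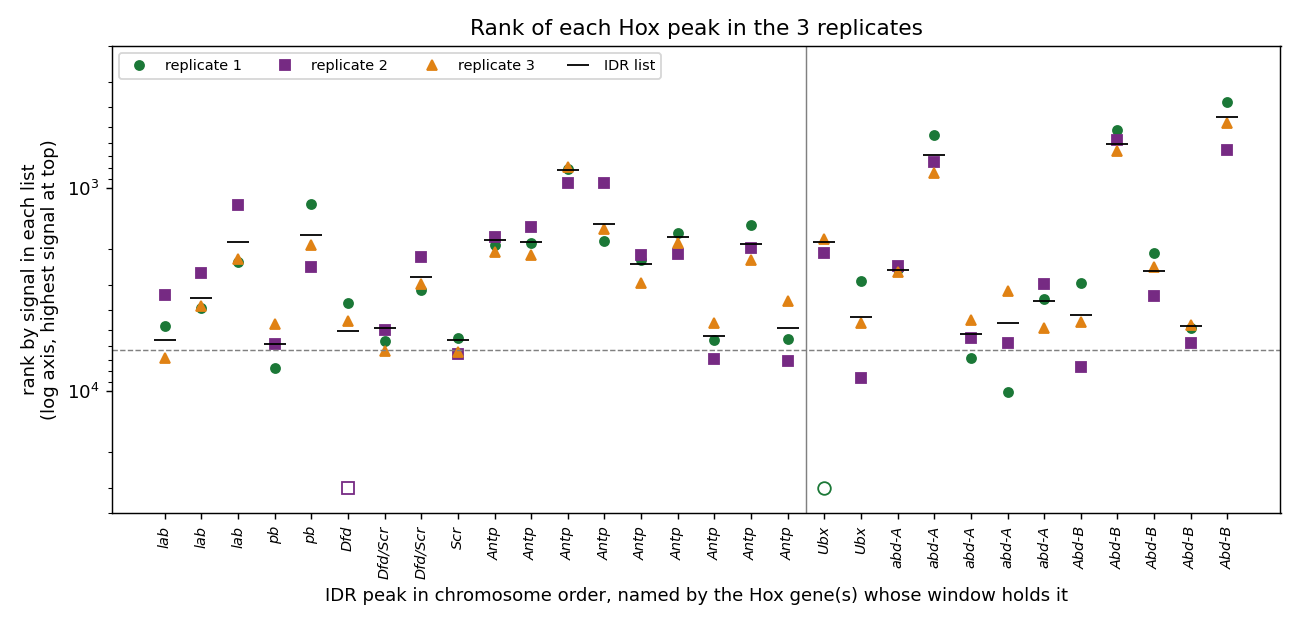
Rank of the region overlapping each of the 30 IDR peaks in the 3 replicate lists (log axis, highest signal at the top), with a bar for its rank in the IDR list and a dashed line at rank 6307. Open symbols at the bottom mark no region in that replicate, for the Dfd promoter peak in replicate 2 and 1 Ubx window peak in replicate 1. The 3 highest peaks rank between 379 and 845 in every replicate.

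Density per replicate was compared with the 6307 highest regions of each list. In the Antennapedia complex it was 49.8, 44.2 and 44.2 per Mb in replicates 1, 2 and 3, and in the bithorax complex 52.7, 41.4 and 60.2. The means were 46.1 ± 3.19 and 51.4 ± 9.47 per Mb (SD, n = 3). The difference, Antennapedia minus bithorax, was −5.37 ± 9.64 per Mb, smaller than its spread, with a two-sided exact sign-flip permutation p of 0.5. With 3 replicates the smallest p this test allows is 0.25. The direction was not stable: 1 of 3 replicates was higher in the Antennapedia complex, and the sign turned in 6 other settings, while with all 30000 regions of each list it was −35.3 per Mb. Over both complexes the density was 48.3 ± 4.601 per Mb against 46.0 in the rest of the genome. That difference, 2.34 ± 4.62 per Mb, gave an exact permutation p of 0.5 and was positive in 2 of 3 replicates.

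By gene, Abd-B had the highest mean density over the replicates, 8.23 ± 2.35 regions per 100 kb (SD, n = 3), from 9, 5 and 7 regions. It was followed by abd-A at 7.43 ± 0.919, from 4, 5 and 5. Next came lab at 5.83 ± 2.02 and Antp at 5.83 ± 0.808, from 4, 4 and 2 and from 9, 7 and 9 regions. Dfd stood at 4.61 ± 1.14, pb at 3.14 ± 1.55 and Scr at 2.99 ± 1.496. Ubx was lowest at 1.70 ± 1.47, from 1, 1 and 4 regions. The ranges over replicates of each pair of neighbours in this order overlapped. The ends of the order did not: Ubx ran from 0.849 to 3.40, abd-A from 6.37 to 7.96 and Abd-B from 5.88 to 10.6. The ranges of lab, Antp and Dfd also lay above that of Ubx. The order was made from these same values, and the separation was not tested. It also rests on the flanks: with no flank the IDR density was 0 for abd-A, 1.29 for Ubx and 4.44 for Abd-B. Dfd and Scr share 2 peaks, so their values are not independent. The IDR list gave another order at the top, with abd-A at 7.96 peaks per 100 kb, Antp at 6.29, Dfd at 5.93 and Abd-B at 5.88, and Ubx again lowest. In that list the median of the 8 genes was 5.56 peaks per 100 kb, against 4.89 over all coding genes.

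**Figure D4:**
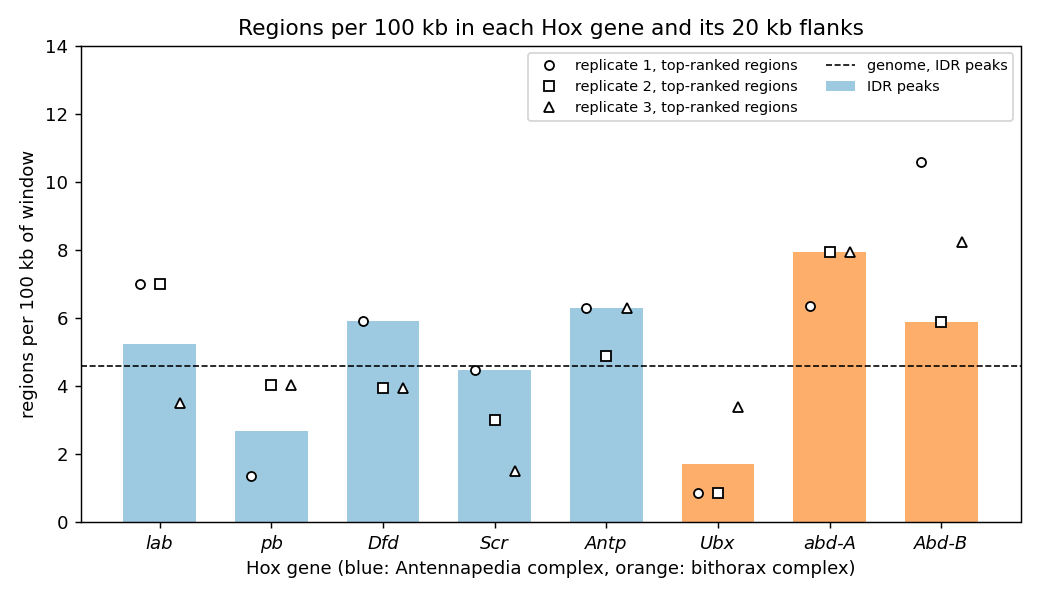
Regions per 100 kb in the window of each Hox gene. Bars are IDR peaks and symbols the 6307 highest regions of each of the 3 replicate lists. The dashed line is the genome-wide density of IDR peaks, 4.602. By the mean over replicates abd-A and Abd-B lie highest and Ubx lowest, with overlap between neighbours in the order. Single replicates differ: lab lies above abd-A in replicate 1, and Scr lies lowest in replicate 3.

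Other gene groups connected with Hox genes gave a range of densities. A promoter peak was found at 21.5% of all coding genes and at 2 of 8 Hox genes. Among 10 other genes of the complexes it was found at 2, Ama (805) and bcd (523). It was found at 1 of 6 Hox cofactors and partners, disco (329), and at 2 of 8 genes known as Hox targets, fkh (1639) and bs (297.5). Among trithorax group genes, which maintain Hox expression, it was found at 10 of 17. The highest there were brm (2071), the ATPase of the Brahma remodelling complex, Trl (754), which encodes GAGA factor, skd (538) and fs(1)h (434). Windows of the trithorax group held 98.2 IDR peaks per Mb, against 47.8 in the Hox windows and 46.0 over the genome. Windows of the Hox targets held 76.1 per Mb, those of the cofactors and partners 53.7 and those of the other genes of the complexes 46.1. Among other homeobox clusters, the NK cluster had a promoter peak at 1 of 6 genes, tin (1130), and 29.3 per Mb, from 6 peaks. The Iroquois complex had 0 of 3 and 29.0 per Mb, from 4 peaks. In the replicates the NK cluster ran from 24.4 to 34.2 per Mb and the Iroquois complex from 14.5 to 36.3, beside 43.0 to 51.0 for the Hox windows. Differences between these groups were not tested.

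Sequence around the Hox peaks was close in composition to that around all IDR peaks, with 63.8 ± 7.06% A and T over 30 peaks and 62.8 ± 6.08% over 6307 (SD). In the 301 bases around each summit, on both strands, TAATTA occurred at 6 of 30 Hox peaks (20%, exact 95% interval 7.71 to 38.6) against 23.6% of all. GAGAG occurred at 12 (40.0%, 22.7 to 59.4) against 34.3%. GCCAT occurred at 15 (50%, 31.3 to 68.7) against 37.5%. AGNNGGCGC, the core of the CTCF insulator motif, occurred at 2 (6.67%, 0.818 to 22.1) against 3.65%. These were the highest Antp intron peak and the peak 4811 bp upstream of abd-A, where it shares bases with a GCCAT match. TATCGATA, the DNA replication-related element, occurred at 0, which allows up to 11.6%, against 3.66%. CACTGAGA, a word that earlier work on these data had found at the peaks, occurred at 1 against 5.41%. Each genome-wide share lay inside the interval for the Hox peaks. Motifs were searched separately, so a base could count in more than 1.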

How the data were processed

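ChIP-seq regions of CG10209-GFP from 3 biological replicates of 1 group were used in dm6. The authors deposited narrowPeak lists in dm6 and dm3; the dm3 lists were not used here. Regions were called for each replicate and for the pooled replicates against a shared control alignment, per the deposited text files. Aligner, caller and IDR cut-off were not given in the sources used here. Each replicate and pooled list has 30000 regions and so includes background. The authors' signal value per region was used within lists. The deposited −log10 q-values served to count regions at 2 or more. The lists give no read counts, so depth is unknown; intervals cover counting error only.

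Genes came from Ensembl 115 and sequence from RefSeq Release 6; coordinates are 1-based. A region's class was promoter (summit within 500 bp of any annotated start), then exon, intron or intergenic. Windows were the gene and 20 kb either side, merged within a complex. Lists were compared at an overlap of 1 bp or more. Densities were tested over replicates with exact sign-flip permutations, two-sided, using Python 3.11.15, pandas 2.3.3 and scipy 1.17.1. Interval counting, overlap and the permutation test were tested on simulated data. All 8 Hox genes and every promoter peak in their windows are named; genes on other lists are named where a promoter peak exists, at most 4 a list. Peaks given in full are the 5 highest of each complex and those at Hox promoters. The members, lists and motifs were chosen with earlier results of these data known. Alternatives varied flank, promoter window, ranks, threshold, overlap and replicates.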

Additional observations from a re-analysis of the deposited data

How the results depend on the processing

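The 30 Hox peaks fell to 14 with no flank and to 16 with the higher-signal part of the list (3153 peaks). They fell to 18 when every replicate had to cover 0.5 of the interval. With 1 replicate left out, 20 to 23 had a region among the 6307 highest in both of the others, beside 18 in all 3. These counts follow the rank filter and do not show a loss from leaving a replicate out. The same filter holds for the other values from IDR peaks with a replicate left out. The median signal was 499.5 with the 3153 highest peaks and 418 to 491 under the rank filter with a replicate left out. Hox genes with a promoter peak went from 2 to 0 with a 250 bp window, with the 3153 highest peaks and with 0.5 of the interval covered, and ranged from 0 to 2 with a replicate left out. The density ratio stayed between 0.976 and 1.05 with a replicate left out. The difference between complexes, −5.37 per Mb, turned to 2.55 with the 3153 highest regions of each replicate, 0.156 at a −log10 q of 2, 28.7 with no flank, 1.45 at 10 kb, 0.851 at 50 kb and 11.1 over the continuous span of each complex, an alternative chosen after seeing the data. It was −35.3, in the main direction, with all 30000 regions, and ran from −9.47 to −0.0591 with a replicate left out. The difference from the rest of the genome, 2.34 per Mb, turned to −5.87 with all 30000 regions, −3.19 at a −log10 q of 2, −4.55 with no flank and −2.29 at 50 kb, and ran from 1.01 to 5.01 with a replicate left out. Exact permutation p lay between 0.25 and 1.0 for both; no setting could give less than 0.25, so these p-values say nothing about stability. No flank leaves out 16 of the 30 peaks by construction. A 250 bp window likewise leaves out the promoter peaks at 290 and 410 bp. Keeping the 3153 highest peaks can only lower the counts and raise the median signal. The cause of the other changes was not tested. Of 69 alternatives for main results, 50 gave the same direction and a value within the limits set for a change, 9 moved it beyond them and 10 turned its sign; of 72 for the counts of single genes, 36 moved. The differences in density were already taken within each replicate. No paired analysis was possible because, beyond that, there is no second group of samples to pair with. Read depth is unknown, so the smallest detectable region cannot be given.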

Other observations

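Both complexes continue between the windows used above, and 6 further IDR peaks lay there. At Ama, which encodes a secreted immunoglobulin-family adhesion protein and sits between bcd and Dfd, 2 peaks lay at the promoters of Ama and lncRNA:CR45593. They had signals of 805 and 694 and overlapped the same region in each replicate, ranking 973, 658 and 814, so they are not separate in the replicates. The higher of them is close to the highest peak in an Antp intron, 815. In lncRNA:bxd, the noncoding gene upstream of Ubx, 2 intron peaks had signals of 312 and 276 and ranked 3144, 2872 and 4777, and 4515, 3880 and 4571. In introns of lncRNA:iab8 and MSAmiP, between abd-A and Abd-B, 2 peaks had signals of 376 and 210. The former ranked 2491, 4995 and 2114 and the latter 4703, 8741 and 7227, so the latter was among the 6307 highest regions in replicate 1 alone.

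Of the pooled regions in the Hox windows, 84 overlapped no IDR peak and 2 of those reached a −log10 q of 2. One was in an intron of lncRNA:bxd in the Ubx window, with a signal of 189.6, and one in an Antp intron, with a signal of 171. The lowest IDR peak of the whole list had a signal of 194.7.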
